A study of Saccharomyces cerevisiae with 37 samples.

Results

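The genes DDR2, TFS1, SPI1, GAD1, GPD1, YRO2, PNC1, DDR48, DCS2 and ALD3 of budding yeast (Saccharomyces cerevisiae) are general stress genes, and their transcripts stood higher in cells exposed to hydrogen peroxide than in unstressed cells. They are 10 of the 5449 genes measured. Members were found by gene symbol in the array platform's annotation, and each had 1 probe set. They had been chosen from measured levels just before the temperature shift, so those levels are given as a description and carry no test.

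Yeast meets many stresses with a shared transcriptional programme. The transcription factors Msn2 and Msn4 enter the nucleus under stress and bind stress response elements in the promoters of its genes. The proteins encoded are enzymes of carbohydrate and redox metabolism, cell surface proteins, chaperones and regulators. An abrupt rise in temperature is itself a known trigger of the programme.

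RNA was measured on 37 Affymetrix arrays from 4 cultures of strain Y262, which has a temperature-sensitive RNA polymerase II, grown in YPD (rich medium) at 26 °C. The oxidative stress culture (10 arrays) received 0.3 mM H2O2 and the DNA damage culture (10 arrays) 0.1% MMS (methyl methanesulfonate, a DNA-alkylating agent). The labels give 25 and 40 min before the shift, read here in the order in which the 2 agents are named. Reference 1 (10 arrays) and reference 2 (7 arrays) received the shift alone. At time 0 every culture was brought to 37 °C with medium at 49 °C, so all 4 cultures, references included, went through a heat shift. Each culture had 2 technical arrays at time 0 and single arrays at 5, 10, 15, 20 and 30 min, and all but reference 2 also at 40, 50 and 60 min. The labels describe the shift as the step that stops transcription, and the comparison of cultures as one of RNA decay after stress.

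With 1 culture per stress, variation between cultures could be measured from the 2 references alone. The small number of cultures limits the precision of the stress comparisons. The large subunit gene of RNA polymerase II, RPO21, stood at 1.77, 1.59, 1.92 and 1.85 log2 units above the array median at time 0 under oxidative stress, DNA damage, reference 1 and reference 2, which does not check a temperature-sensitive allele. Array medians ran between 10.5 and 12.9 on the deposited log2 scale. The median offset between the 2 technical arrays was 0.37, 0.016, 0.45 and 0.14 log2 in the same order of cultures. A control probe set for small ribosomal RNA averaged −1.64 relative to the array median under oxidative stress, against 0.068 under DNA damage, 0.64 in reference 1 and 0.37 in reference 2. Values are therefore given on 2 scales: log2 values as deposited, for changes over time within a culture, and log2 values relative to the median of their array, for comparing cultures. The arrays do not tell a change in all cells from a change in some of them.

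Before the shift, all 10 transcripts were higher under oxidative stress than in both references, beside 29.5% of the genes tested, relative to the array median. The members' median difference from the mean of the 2 references was 1.17 log2 relative to the array median, and over the 3899 genes tested it was −0.073. At an adjusted p of 0.05 (limma with Benjamini-Hochberg adjustment, as deposited) 11.7% of the genes tested were higher under oxidative stress and 0.769% were lower. Under DNA damage 2.85% were higher and 3.15% were lower. These shares are background, since the members were chosen on these arrays. Under DNA damage the members' median difference was 0.25, beside −0.13 over the genes tested. There 7 of 10 members were above both references, beside 28.1% of the genes tested. As deposited, the difference of the median gene tested was 0.29 under oxidative stress and −0.15 under DNA damage, so values as deposited hold that shift as well.

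**Figure D1:**
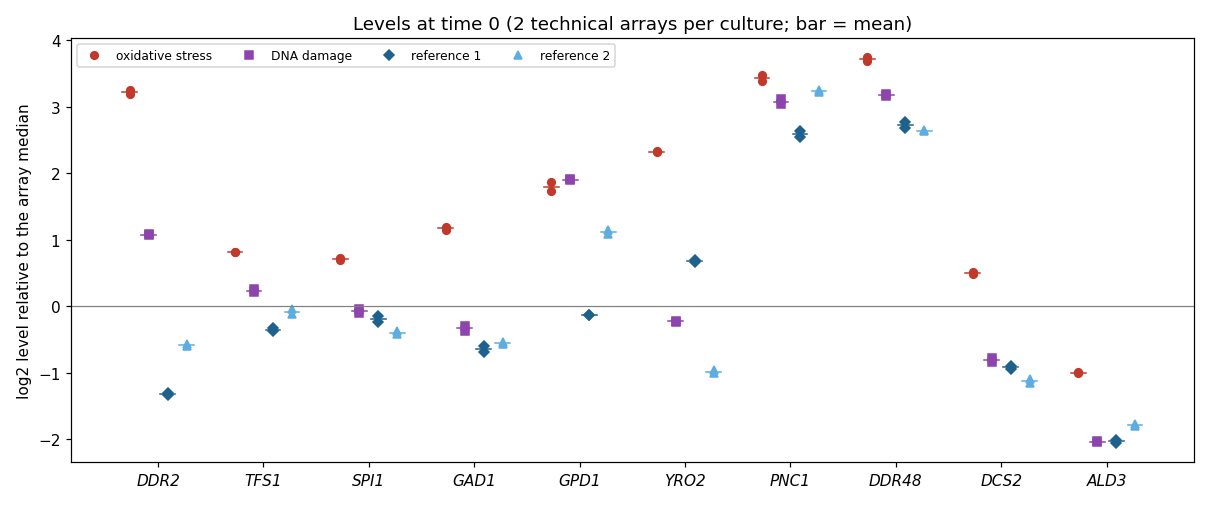
Levels of the 10 transcripts at time 0 in log2 units relative to the array median. Each point is 1 of the 2 technical arrays of a culture and each bar their mean. DDR2 and YRO2 under oxidative stress lie farthest above the references, while YRO2 differs between the references by 1.66.

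DDR2 encodes a small protein made in response to many stresses. Its time 0 arrays stood at 3.25 and 3.19 log2 relative to the array median under oxidative stress and at 1.07 and 1.08 under DNA damage. In reference 1 they stood at −1.33 and −1.31, and in reference 2 at −0.59 and −0.57. The cultures did not overlap, and the order was oxidative stress, DNA damage, reference 2, reference 1. The difference from the reference mean was 4.17 under oxidative stress (18.0-fold) and 2.03 under DNA damage (4.07-fold). The fold values are not exact, since DDR2 was below the filter for dim genes, 11.04 as deposited, in reference 1. DDR48, an asparagine- and serine-rich protein produced after heat and DNA damage, was abundant in every culture. It stood at 3.68 and 3.74 under oxidative stress and at 3.15 and 3.19 under DNA damage, against 2.77 and 2.68 in reference 1 and 2.64 and 2.63 in reference 2. The references differed by 0.090 and lay below both stressed cultures, by a mean of 1.03 for oxidative stress and 0.49 for DNA damage.

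Among the enzymes, GAD1 encodes glutamate decarboxylase, which makes γ-aminobutyrate. It was at 1.14 and 1.196 under oxidative stress and −0.30 and −0.37 under DNA damage, against −0.60 and −0.69 in reference 1 and −0.57 and −0.54 in reference 2. Only oxidative stress stood apart by more than the distances among the other cultures, 3.40-fold above the references. GPD1 encodes the NAD-dependent glycerol-3-phosphate dehydrogenase of glycerol synthesis. It was at 1.74 and 1.86 under oxidative stress and 1.90 and 1.90 under DNA damage, against −0.14 and −0.13 in reference 1 and 1.14 and 1.08 in reference 2. The stressed cultures differed by −0.10 (oxidative stress minus DNA damage), less than the technical arrays of the oxidative stress culture differed from each other (0.12). The references were 1.24 apart, so the difference of 1.31 under oxidative stress was 1.93 against reference 1 and 0.69 against reference 2.

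PNC1, the nicotinamidase of NAD salvage, was at 3.47 and 3.39 under oxidative stress and 3.11 and 3.04 under DNA damage, against 2.63 and 2.54 in reference 1 and 3.22 and 3.24 in reference 2. DNA damage thus lay between the references, which differed by 0.64, more than the difference of 0.52 between oxidative stress and their mean (0.84 against reference 1 and 0.20 against reference 2). ALD3, a cytosolic aldehyde dehydrogenase, was the dimmest. It was at −1.003 and −0.992 under oxidative stress and −2.02 and −2.04 under DNA damage, against −2.01 and −2.06 in reference 1 and −1.79 and −1.77 in reference 2. Oxidative stress stood 0.91 above the references, and both references were below the filter.

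Of the cell surface and membrane proteins, SPI1 is a cell wall protein with a lipid anchor. It was at 0.69 and 0.72 under oxidative stress and −0.10 and −0.04 under DNA damage, against −0.24 and −0.14 in reference 1 and −0.41 and −0.38 in reference 2. DNA damage differed from reference 1 by 0.12, no more than the references from each other (0.21). YRO2 is a membrane protein related to the heat shock protein Hsp30. It was at 2.33 and 2.31 under oxidative stress and −0.23 and −0.22 under DNA damage, against 0.66 and 0.69 in reference 1 and −0.96 and −1.01 in reference 2. The references were 1.66 apart with DNA damage between them, and oxidative stress stood 1.64 above reference 1 and 3.31 above reference 2.

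The regulators TFS1 and DCS2 completed the group. TFS1 inhibits carboxypeptidase Y and the Ras regulator Ira2. It was at 0.81 and 0.82 under oxidative stress and 0.21 and 0.26 under DNA damage, against −0.33 and −0.37 in reference 1 and −0.04 and −0.12 in reference 2. Its order repeated that of DDR2 over a shorter range. DCS2 is a paralog of the scavenger decapping enzyme Dcs1. It was at 0.52 and 0.48 under oxidative stress and −0.77 and −0.84 under DNA damage, against −0.90 and −0.94 in reference 1 and −1.16 and −1.10 in reference 2. DNA damage and reference 1 were 0.12 apart, less than the references from each other.

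After the shift, most of these transcripts reached higher levels as deposited in every culture, the unstressed ones included, while the median gene was lower. From 0 to 30 min the median member's difference was 0.50 under oxidative stress, 1.36 under DNA damage, 1.27 in reference 1 and 1.60 in reference 2. The median of the 5449 genes was −0.78, −1.15, −1.13 and −1.06 in the same order. At 30 min 6, 7, 9 and 7 of the 10 members were above their time 0 level. The 9 in reference 1 include ALD3, which was higher by only 0.00026. Over the same time 12 probe sets of bacterial spike-in RNA changed by −0.84 to −0.021, so none of them was higher. From 0 to 5 min they changed by −0.63 to 0.14. The cDNA was primed with poly(T), and whether tail length had a part in these values was not tested. These differences share the time 0 arrays with the choice of members, so they carry no test.

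**Figure D2:**
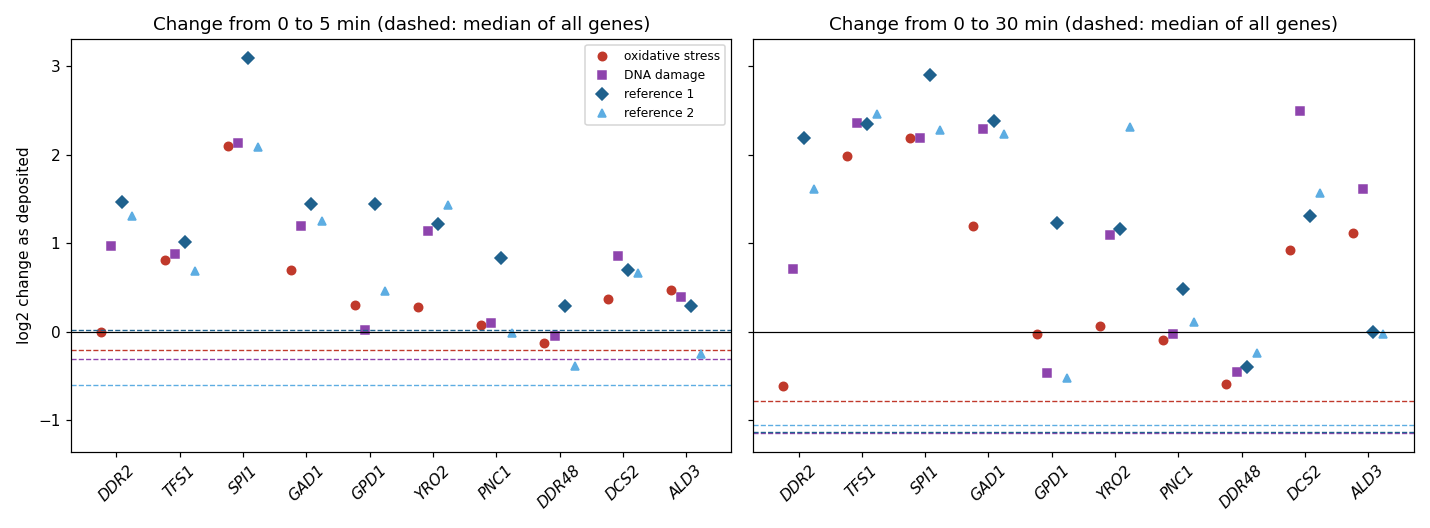
Change in log2 level as deposited from time 0 (mean of 2 arrays) to 5 min (left) and to 30 min (right) for each transcript and culture, 1 array at the later time. The dashed lines give the median of all genes in each culture. SPI1 is highest at 5 min in all 4 cultures, and DDR48 lies below 0 at 30 min in all 4.

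In both references 4 members, DDR2, SPI1, GAD1 and YRO2, were at least 1 log2 unit higher at 5 min than at time 0, which 0.569% of all genes were. At 30 min the members that were so in both references numbered 6, namely DDR2, TFS1, SPI1, GAD1, YRO2 and DCS2, beside 0.459% of all genes. Under oxidative stress the 4 members with that difference at 30 min were TFS1, SPI1, GAD1 and ALD3 (0.899% of all genes). Under DNA damage they were TFS1, SPI1, GAD1, YRO2, DCS2 and ALD3 (1.01% of all genes).

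SPI1 had the largest early difference. As deposited it stood at 13.37, 15.47, 15.59, 15.53, 15.62 and 15.56 at 0, 5, 10, 15, 20 and 30 min under oxidative stress, and at 12.22, 14.35, 15.09, 14.97, 14.95 and 14.40 under DNA damage. In reference 1 the same times gave 12.16, 15.26, 15.45, 15.58, 15.37 and 15.06, and in reference 2 they gave 11.85, 13.94, 14.57, 14.65, 14.60 and 14.13. The largest step lay in the first interval in every culture. At 10 min the level was higher still in all 4 cultures. From 0 to 5 min it was 4.28-fold under oxidative stress, 4.38-fold under DNA damage, 8.57-fold in reference 1 and 4.25-fold in reference 2.

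DDR2 was high under oxidative stress from the start and did not go higher there. As deposited it stood at 15.89, 15.89, 15.54, 15.26, 15.26 and 15.27 at 0 to 30 min under oxidative stress and at 13.36, 14.33, 14.61, 14.41, 14.39 and 14.07 under DNA damage. The references gave 11.03, 12.50, 12.996, 13.45, 13.36 and 13.22 (reference 1) and 11.67, 12.97, 13.91, 14.11, 14.03 and 13.29 (reference 2). From 0 to 30 min both references were highest at 15 min, 2.42 and 2.44 above their time 0 level. The oxidative stress culture differed by −0.62 between 0 and 30 min. Reference 1 stood higher later, at 13.60 at 50 min. No reference array from 0 to 30 min reached the lowest value of the oxidative stress culture over these times.

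**Figure D3:**
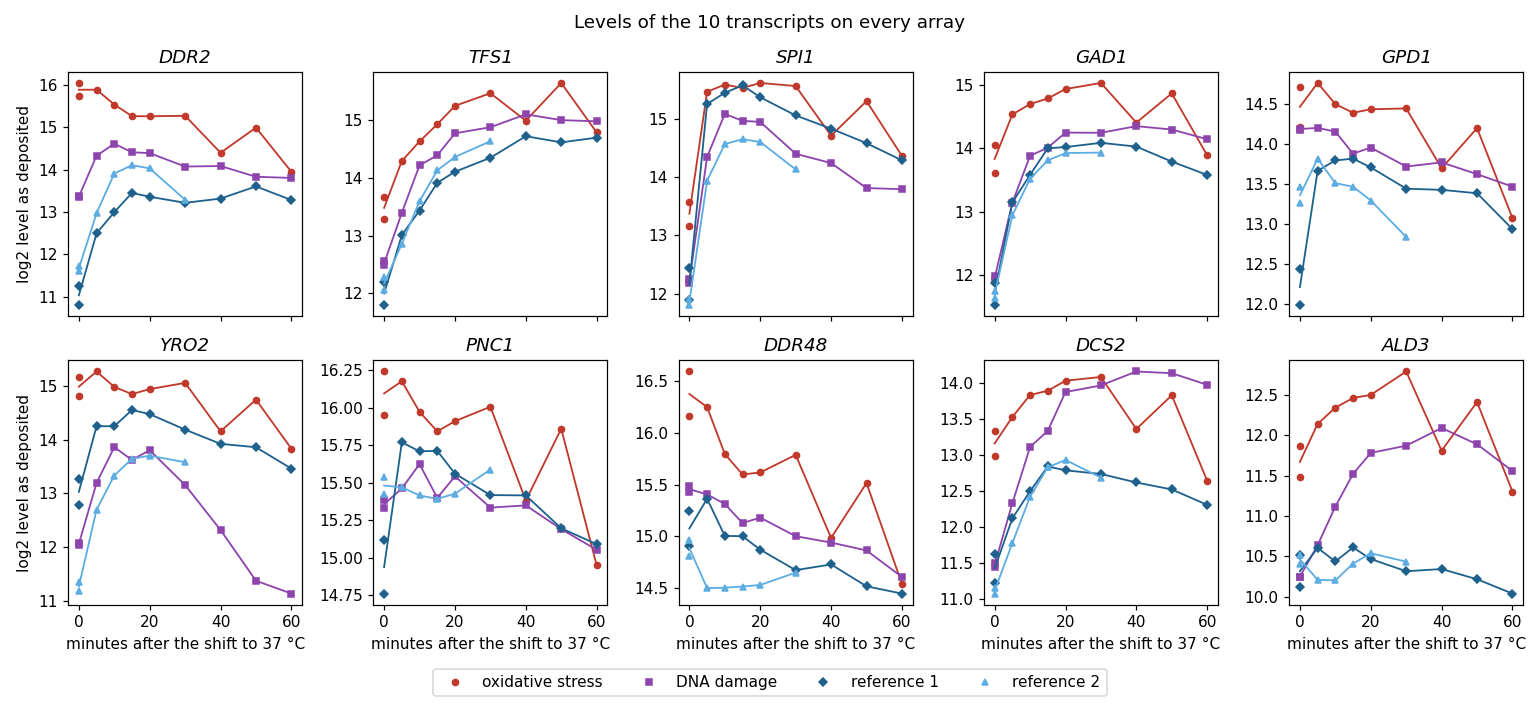
Log2 level as deposited (vertical axes, scaled for each gene) against minutes after the shift to 37 °C for the 10 transcripts, with every array as a point and lines through the time 0 mean and the later arrays. The oxidative stress values of DDR2 lie above all others at every time, and ALD3 under DNA damage leaves the references only after the shift. As deposited, the oxidative stress culture is lower at 40 min than at 30 and 50 min for all 10 transcripts. Relative to the array median, which is not drawn here, this holds for DDR2, SPI1, YRO2 and ALD3 only. On that scale GAD1, GPD1, PNC1 and DCS2 are higher at 40 min than at 30 and 50 min. TFS1 and DDR48 lie between, so the dip shared by all 10 is seen only on the deposited scale.

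YRO2 showed a like contrast. As deposited it stood at 14.99, 15.27, 14.98, 14.85, 14.94 and 15.06 under oxidative stress and at 12.06, 13.19, 13.86, 13.62, 13.80 and 13.15 under DNA damage. Reference 1 had 13.03, 14.25, 14.25, 14.55, 14.47 and 14.18, and reference 2 had 11.26, 12.69, 13.33, 13.64, 13.70 and 13.58. On this scale the range over 30 min was narrow under oxidative stress, while the other cultures reached 3.48-fold (DNA damage), 2.88-fold (reference 1) and 5.41-fold (reference 2) of their time 0 level. Relative to the array median YRO2 was higher at 30 min than at time 0 by 0.96 under oxidative stress, 2.17 under DNA damage, 2.33 in reference 1 and 3.35 in reference 2.

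Within 0 to 30 min TFS1 and GAD1 reached their highest level late. TFS1 stood at 13.48, 14.29, 14.63, 14.93, 15.25 and 15.47 under oxidative stress and 12.52, 13.39, 14.22, 14.39, 14.77 and 14.88 under DNA damage, against 11.997, 13.01, 13.43, 13.91, 14.11 and 14.35 in reference 1 and 12.17, 12.86, 13.60, 14.13, 14.36 and 14.63 in reference 2. From 0 to 30 min TFS1 was highest at 30 min in all 4 cultures, 3.96-fold, 5.13-fold, 5.10-fold and 5.52-fold above time 0. In the cultures with later arrays it stood higher still, at 15.64 (oxidative stress, 50 min), 15.10 (DNA damage, 40 min) and 14.72 (reference 1, 40 min). Over the same 0 to 30 min GAD1 had its highest level at 30 min under oxidative stress and in both references and at 20 min under DNA damage. These levels were 2.29-fold that at time 0 under oxidative stress, 4.91-fold under DNA damage, 5.21-fold in reference 1 and 4.72-fold in reference 2. Under DNA damage GAD1 was higher later, with 14.35 at 40 min beside 14.25 at 20 min.

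DCS2 went furthest under DNA damage. As deposited it stood at 13.17, 13.53, 13.84, 13.90, 14.04 and 14.09 under oxidative stress and 11.48, 12.34, 13.12, 13.34, 13.88 and 13.97 under DNA damage, against 11.43, 12.13, 12.50, 12.85, 12.79 and 12.74 in reference 1 and 11.12, 11.78, 12.43, 12.83, 12.94 and 12.69 in reference 2. On the deposited scale the DNA damage culture began beside the references and at 30 min lay beside oxidative stress. Relative to the array median DCS2 stood at 2.76 under DNA damage at 30 min, above the 2.31 under oxidative stress. As deposited the level under DNA damage at 30 min was 5.62-fold that at time 0, beside 1.90-fold under oxidative stress. The references reached 2.67-fold (reference 1, 15 min) and 3.52-fold (reference 2, 20 min) at their highest.

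On the deposited scale ALD3 was near level in both references and higher with time in both stressed cultures. As deposited it stood at 11.67, 12.14, 12.34, 12.46, 12.50 and 12.78 under oxidative stress and 10.25, 10.64, 11.12, 11.52, 11.78 and 11.87 under DNA damage, against 10.32, 10.61, 10.44, 10.61, 10.47 and 10.32 in reference 1 and 10.47, 10.21, 10.21, 10.41, 10.54 and 10.44 in reference 2. From 10 min on, both stressed cultures lay above every reference array. The 0 to 30 min difference was 1.12 under oxidative stress and 1.62 under DNA damage, against 0.00026 in reference 1 and −0.029 in reference 2. Relative to the array median it was 2.01, 2.69, 1.18 and 1.01 in that order, so on that scale the references were higher at 30 min too. With a mean of 11.03 over the 28 arrays from 0 to 30 min ALD3 missed the filter, so it entered no test, and the reference values are near the dim end of the arrays. ALD2 lies next to ALD3 on the chromosome (0 genes between them in the RefSeq order) and is nearly identical to it, so signal shared by the probes is possible. ALD2 itself differed from 0 to 30 min by 0.34 and 0.36 under oxidative stress and DNA damage and by 0.071 and 0.039 in the references.

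GPD1, PNC1 and DDR48 reached no level 1 log2 unit above time 0 in any culture but reference 1, where GPD1 did. GPD1 differed from 0 to 30 min by −0.020 under oxidative stress, −0.47 under DNA damage, 1.23 in reference 1 and −0.52 in reference 2, and its highest point came at 5 min in all cultures but reference 1 (15 min). The references disagreed in sign, and reference 1 started lowest. PNC1 differed by −0.089 under oxidative stress, −0.023 under DNA damage, 0.48 in reference 1 and 0.11 in reference 2. DDR48 was lower at 30 min in each culture, by −0.59, −0.46, −0.40 and −0.24 in that order. Relative to the array median all 3 were higher at 30 min than at time 0 in every culture, DDR48 by 0.30 to 0.80.

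The difference between oxidative stress and the references was smaller at 30 min than at time 0 for 9 of the 10 members. Since the members were chosen on the time 0 arrays, a smaller later difference can follow from that choice and carries no test. The reference mean at 30 min also holds the 30 min array of reference 2. On that array 9 of 10 members were lower than at 20 min, relative to the array median, and the share of all genes is not given here. Relative to the array median the DDR2 difference was 4.17, 2.74, 1.66, 1.12, 1.07 and 1.44 at 0, 5, 10, 15, 20 and 30 min. For YRO2 the same times gave 2.47, 1.38, 0.76, 0.39, 0.36 and 0.59, and for GAD1 1.77, 1.08, 0.72, 0.52, 0.47 and 0.44. From 0 to 30 min DCS2 had 1.52 and 0.79, GPD1 1.31 and 0.72, DDR48 1.03 and 0.55, TFS1 1.03 and 0.39, SPI1 1.00 and 0.39, and PNC1 0.52 and −0.080 as first and last value. For ALD3 it was larger, with 0.91 at time 0 and 1.82 at 30 min. The members' median difference was 1.17, 1.01, 0.70, 0.50, 0.45 and 0.57 at the 6 times, and 10, 9, 9, 8, 8 and 8 members lay above both references. Over the genes tested the median lay between −0.073 and −0.043, and 29.5% were above both references at time 0 and 31.1% at 30 min.

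**Figure D4:**
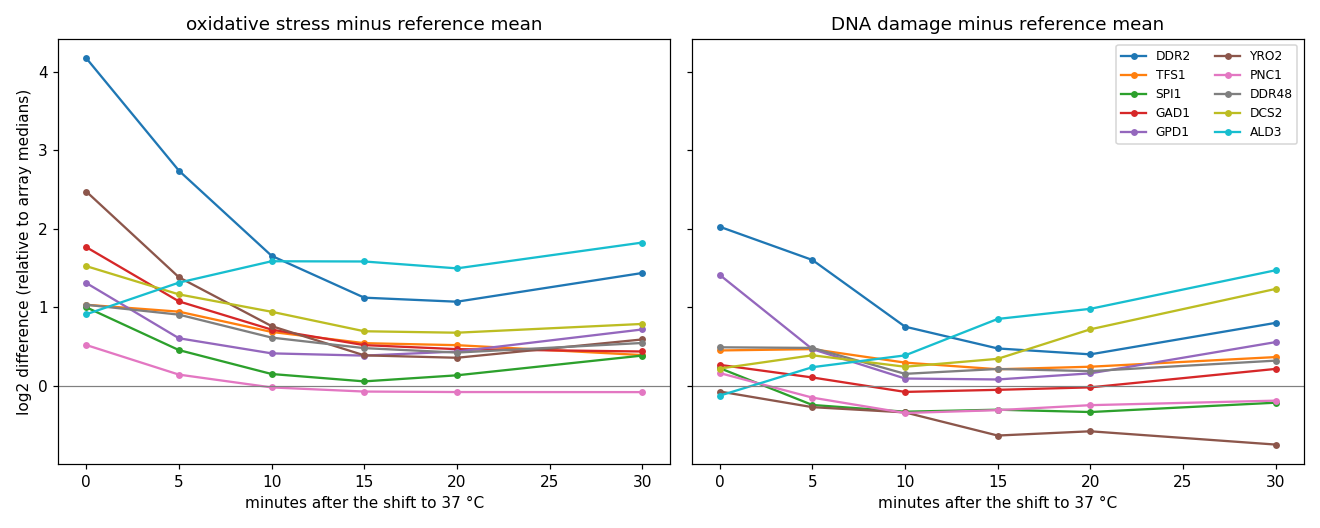
Difference from the mean of the 2 references in log2 units relative to the array median, against minutes after the shift, for oxidative stress (left) and DNA damage (right), 1 line per transcript. Under oxidative stress DDR2 starts at 4.17 and is at 1.44 at 30 min, while ALD3 starts at 0.91 and is at 1.82. Under DNA damage DCS2 and ALD3 end highest, at 1.23 and 1.47.

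Under DNA damage the members split. DDR2 (2.03 at time 0 and 0.80 at 30 min) and GPD1 (1.41 and 0.56) came closer to the references. DCS2 (0.22 and 1.23) and ALD3 (−0.13 and 1.47) moved above them, and YRO2 moved below them (−0.073 and −0.75). The other 5 members stayed between −0.35 and 0.49 at all times. Over the 6 times 7, 6, 2, 3, 4 and 7 members were above both references, beside 28.1% of the genes tested at time 0 and 37.6% at 30 min. The 2 stress comparisons share the same reference arrays.

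Slopes from 5 to 30 min use none of the time 0 arrays and were tested with limma, 1 slope per culture, over the 3899 genes above the filter, with Benjamini-Hochberg adjustment. ALD3 was left out by the filter, and 9 of 10 members were tested. Against the references, 0.0256% of genes differed under oxidative stress, which is 1 gene, SRX1 (sulfiredoxin; −1.35 log2 per 10 min, SE 0.31, adjusted p = 0.0472), and 0% under DNA damage or between the stresses. Unadjusted p-values under 0.05 numbered 17, 62 and 44 genes in the 3 comparisons, with 0 members among them. On arrays centred on their median they numbered 171, 416 and 414, with 1 member in each (YRO2, DCS2 and DCS2 in that order), and 0 genes passed after adjustment. DDR2 had slopes of −0.23 log2 per 10 min under oxidative stress and −0.14 under DNA damage, against 0.26 and 0.051 in the references, a difference of −0.38 (SE 0.31) for oxidative stress and −0.29 for DNA damage. The other differences ran between −0.21 (YRO2) and 0.13 (GPD1) for oxidative stress and between −0.22 (YRO2) and 0.35 (DCS2) for DNA damage, all with an SE of 0.31. Since the courses of DDR2, SPI1 and YRO2 turn within this window, a slope here is not a decay rate.

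The result for DDR2 depended on the 30 min array of reference 2. Relative to the array median 9 of 10 members were lower at 30 than at 20 min in reference 2 (DDR2 by −0.90, SPI1 by −0.63, GPD1 by −0.62), against 2 of 10 in reference 1. The share of all genes that were lower is not given here, so the drop cannot be called particular to the members. With that array alone left out, a setting added after seeing the data in which reference 2 has a shorter window than the other cultures, DDR2 differed from the references by −0.69 log2 per 10 min under oxidative stress (limma, adjusted p = 0.000464) and by −0.60 under DNA damage (adjusted p = 0.00341). Then 7.39% and 5.46% of all genes tested passed, and DDR2 was the 1 member that passed in each.

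Over 5 to 20 min, without the 30 min arrays of all cultures, DDR2 had a slope of −0.43 log2 per 10 min under oxidative stress and −0.0047 under DNA damage, against 0.61 in reference 1 and 0.67 in reference 2. The difference of −1.07 under oxidative stress passed (SE 0.22, limma, adjusted p = 0.00103), in a background of 0.821% of genes. That under DNA damage, −0.65, did not pass (adjusted p = 0.0873). YRO2 had −0.65 under oxidative stress (adjusted p = 0.239), and no other member passed. Over 10 to 30 min the DDR2 difference under oxidative stress was 0.040 and did not pass.

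The references' own slopes were set against the median gene. Over 5 to 30 min 0% of genes passed, 1215 had an unadjusted p under 0.05, and 8 of the 9 members tested were among these (31.2% of all genes tested), with adjusted p-values from limma of 0.0826 to 0.156. The largest differences from the median gene were 0.88 log2 per 10 min for TFS1, 0.64 for GAD1 and 0.56 for DCS2. Over 5 to 20 min 15.1% of genes were called above the median gene, and 8 of 9 members were, all but GPD1 (0.28, adjusted p = 0.157). TFS1 rose most against it (1.31 log2 per 10 min, adjusted p = 0.000635), followed by DDR2 (1.07), GAD1 (1.06), DCS2 (1.05), YRO2 (0.86), SPI1 (0.68), PNC1 (0.35) and DDR48 (0.29, adjusted p = 0.0291). As deposited PNC1 and DDR48 had slopes of −0.12 and −0.30 in reference 1 and −0.030 and 0.021 in reference 2, so they differed from the median gene by a slower loss or a level course.

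Between 30 and 60 min, relative to the array median, the largest difference of a member was that of YRO2 after MMS. YRO2 stood at 1.94, 1.14, 0.42 and 0.37 at 30, 40, 50 and 60 min under DNA damage, a change of −1.57. Under oxidative stress the change was 0.077 and in reference 1 it was −0.20. A change of −1 or beyond was seen in 9.1% of all genes under DNA damage, 2.35% under oxidative stress and 0.514% in reference 1, and YRO2 was the 1 member in the first of these and 0 members were in the others. TFS1 was higher at 60 than at 30 min, by 0.62 under oxidative stress, 0.56 under DNA damage and 0.87 in reference 1. DDR2 differed by −0.021, 0.18 and 0.59 in that order, and DCS2 under DNA damage by 0.46. Reference 2 has no arrays at these times here, and each value rests on single arrays with no test.

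Paralogs and pathway neighbours of the members did not all do the same. The membrane heat shock gene HSP30, of the family of YRO2, had differences from the references of 4.03 under oxidative stress and 2.02 under DNA damage at time 0, while the third family gene, MRH1, had 0.33 and −0.56. As deposited HSP30 was higher at 5 min than at 0 by 0.016 under oxidative stress, 1.498 under DNA damage, 3.22 in reference 1 and 3.93 in reference 2, lowest under oxidative stress as for DDR2. Of the neighbours of PNC1 in NAD synthesis, NMA2 had 1.63 and 0.88 at time 0, and its isozyme NMA1 −0.043 and 0.087. The NAD synthetase gene QNS1 had 0.019 and 0.29, the phosphoribosyltransferase gene NPT1 −0.36 and −0.29, and SIR2, the deacetylase that nicotinamide inhibits, −0.55 and 0.095.

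Beside GPD1, the isozyme gene GPD2 had −0.69 under oxidative stress and 0.10 under DNA damage, and the glycerol phosphatase genes had −0.78 and −0.88 (GPP1) and −0.51 and −0.43 (GPP2). The path from γ-aminobutyrate had 0.61 and 0.55 for the transaminase gene UGA1, 0.22 and 0.15 for the dehydrogenase gene UGA2, and −0.23 and −0.21 for the permease gene UGA4. Aldehyde dehydrogenase genes other than ALD3 had 0.20 and −0.45 (ALD2), 1.199 and 0.49 (ALD4), −0.12 and 0.50 (ALD5), and 0.065 and −0.45 (ALD6). The references differed by 1.53 for ALD4, by −1.07 for GPD2, by −0.79 for GPP2 and by 0.54 for MRH1 (reference 1 minus reference 2), each more in size than the difference of that gene under oxidative stress. DCS1, the decapping paralog of DCS2, had 0.50 and 0.18, and the exonuclease gene XRN1 0.0088 and −0.35. For TFS1, its targets PRC1 (carboxypeptidase Y) and IRA2 had −0.026 and −0.18 and 0.089 and −0.22, and its paralog YLR179C −0.47 and −0.53. The cell wall gene SED1, set beside SPI1, had 0.11 and −0.83, and HOR7, set beside DDR2, −0.063 and −0.58. The references also differed by more than the oxidative stress difference for ALD2, ALD5, ALD6, NMA1, QNS1, UGA4, XRN1, PRC1, IRA2, SED1 and HOR7. UGA4 and NMA1 were below the filter, and of the other paralogs and neighbours none passed in any test of 5 to 30 min slopes (limma).

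A list of 60 other general stress genes, 45 of them above the filter, showed higher levels under oxidative stress as well. It was written from textbook knowledge with earlier results of these data known, so its direction is not independent evidence. As deposited 34 were higher, 0 were lower and 11 did not pass under oxidative stress at time 0, with a median difference of 1.26 beside 0.29 for all genes tested. On arrays centred on their median 10 passed. Under DNA damage 7 were higher, 1 was lower and 37 did not pass (median 0.33 beside −0.15), and 0 passed after centring. No slope difference of the list was called. From 0 to 30 min the median of the 60 genes changed by 0.40 under oxidative stress, 0.48 under DNA damage and 0.32 in the references, beside −0.78, −1.15 and −1.09 for all genes. Genes at least 1 log2 unit higher at 30 min numbered 17 under oxidative stress, 19 under DNA damage and 12 in both references, beside the 0.899%, 1.01% and 0.459% of all genes.

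Across the 37 arrays, relative to the array median, the members went up and down together in part. Over the 45 pairs Pearson's r ran between 0.50 and 0.97 with a median of 0.81, and YRO2 followed the mean of the 9 members above the filter least (r = 0.71) and GAD1 most (r = 0.99). Each of these 9 is part of that mean, which raises its r, so its r cannot be set against that of a gene outside the mean. The other tested genes with a profile closest to that mean were SYM1 (r = 0.987), MPM1 (0.981), PNS1 (0.979), GCY1 (0.971) and YGR127W (0.970). The arrays are time points of 4 cultures and are not independent, so these values describe likeness only.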

How the data were processed

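The authors deposited log2 intensities per probe set, which the submitters' processing notes credit to RMA. The RMA version is not given in the sources used, nor whether arrays were normalized together. They run from 3.69 to 17.5 over 5900 probe sets. Per the labels' protocols, cDNA was primed with poly(T). The platform annotation named 1 gene for 5498 probe sets, several for 0 and none for 402. All 5498 matched RefSeq (12 symbols updated), giving 5449 genes, each by its brightest probe set. A filter kept the 3899 genes whose mean across the 28 arrays from 0 to 30 min exceeded 11.04, the 30th percentile, and dropped 1550.

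Each culture gave 1 value per gene, its mean level at time 0 or its least-squares slope from 5 to 30 min. limma 3.58.1 in R 4.3.3 (lmFit, eBayes) fitted these values. The 2 references left 1 residual degree of freedom, which stood for the stressed cultures too. Prior degrees of freedom were infinite for slopes, 235 for levels and 2.35 for reference slopes, so p-values of the stress comparisons rest on a spread shared by all genes. The scripts were tested on simulated data. Arrays at time 0 are technical and count as 1 replicate.

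The members and gene lists were chosen with earlier results of these data known. Named are the members, their listed paralogs and neighbours, listed stress genes with the largest slope differences past the threshold (there were 0), and the 5 genes most like the members' mean profile. Alternatives were array centring, quantile normalization, no filter, the mean of probe sets, other time windows, single time 0 arrays and leaving out a reference. Figures were drawn with matplotlib 3.10.9.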

Additional observations from a re-analysis of the deposited data

How the results depend on the processing

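Of the values and tests of single genes, 661 were the same, 97 moved, and 33 passed only under an alternative. A test was the same if it kept its sign and its side of the threshold. It moved if its sign turned while neither setting passed. A value without a test was the same if it changed by less than the spread between the references, and otherwise moved. For the members 50 of 315 slope values and 4 of 140 level values had the opposite sign to the main one, and 0 of these passed the threshold in either setting. Counts of genes depended on the scaling and the window. The 1 gene with a different slope under oxidative stress became 0 with centred arrays, with quantile normalization, without the filter and over 10 to 30 min, 31 over 0 to 30 min and 32 over 5 to 20 min, with 1 member (DDR2) in the last 2. With the 30 min array of reference 2 left out it became 288 (1 member, DDR2), and the counts for DNA damage, between the stresses and for reference slopes became 213 (1 member, DDR2), 103 (0 members) and 1398 (8 members). The window of 0 to 30 min includes the time 0 arrays on which the members were chosen. The DDR2 difference there, −0.81 log2 per 10 min, and the member counts for that window are therefore descriptions and carry no test. For DNA damage 0 became 71 over 0 to 30 min, 132 over 5 to 20 min and 1 over 10 to 30 min, and between the stresses 0 became 82 and 71 over the first 2 windows. Reference slopes against the median gene gave 26 genes with quantile normalization (1 member), 440 without the filter (4 members), 1233 over 0 to 30 min (8 members) and 1369 over 5 to 20 min (8 members), against 0. Levels under oxidative stress were higher for 458 genes as deposited, and for 114 centred, 106 with quantile normalization, and 137 and 153 with the first or second time 0 arrays only. The 30 lower ones became 18 with quantile normalization and 3 and 0 with single arrays. The listed general stress genes numbered 34 as deposited and 10, 9, 11 and 19 in these 4 settings. Under DNA damage the 111 higher genes became 42, 32, 26 and 32, the 123 lower ones 12, 3, 3 and 6, and the 7 higher and 1 lower of the listed genes became 0 in each. The members' median level difference was 1.54 as deposited against 1.17 for oxidative stress, and 0.41 with quantile normalization, and 0.33 and 0.38 without reference 1 or 2, against 0.25 for DNA damage. Without a reference no test was possible, since no residual degree of freedom was left. Counts of members at least 1 log2 unit higher after the shift stayed within 1.5 times under alternatives added after seeing the data. The cause of these shifts was not tested. No paired analysis was possible because each stress had 1 culture and the replicate numbers name the references only. Signals below 11.04, as for ALD3 in the references, limit how exactly a fold can be read.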
